A study of Homo sapiens with 6 samples.

Results

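The genes described here are the 9 that encode the FOS, JUN and ATF3 group of AP-1 proteins: FOS, FOSB, FOSL1, FOSL2, JUN, JUNB, JUND, ATF3 and BATF3. They were chosen by gene symbol, all 9 were found among the 44591 genes listed, and all 9 passed the filter on low counts that left 16222 genes to test. RNA came from A2780, an established human ovarian cancer cell line of wild-type genotype grown in DMEM with fetal bovine serum. Of the 6 libraries, 3 were from untreated cells and 3 from cells given recombinant human CRMP2 (r-CRMP2) at 40 ng/ml in the medium, and the labels give 48 h for both groups. CRMP2 is a cytosolic protein best known from axon growth, and the study asked what the protein released by cancer-associated fibroblasts does to ovarian cancer cells. A single cell line at 1 dose and 1 time was sequenced, and the labels do not say whether the replicates were grown as separate cultures, so p-values measure the spread between these libraries.

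AP-1 is a family of dimers that bind DNA through a basic region and a leucine zipper. FOS proteins cannot pair with each other and need a JUN partner, whereas JUN proteins pair with themselves, with FOS proteins and with ATF proteins. FOS, FOSB, JUN, JUNB and ATF3 are immediate-early or early response genes: growth factors and stress raise them within minutes through ERK, JNK and p38 kinases, and their mRNAs and proteins are short-lived. FOSL1 (FRA-1) and FOSL2 (FRA-2) are made later and last longer, and FOSL1 is known for its part in the migration and invasion of carcinoma cells. JUND is present in most resting cells, and BATF3 is best known from dendritic cells.

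Of the 9 genes, FOSL1 and JUN were higher and FOSB was lower in the r-CRMP2 libraries past both thresholds, an adjusted p-value under 0.05 and a log2 fold change beyond 1. Among all genes tested, 5.12% were higher and 8.86% lower by this rule. Without the fold change threshold, 6 of the 9 were higher (FOSL1, FOSL2, JUN, JUNB, JUND and ATF3) and 1 was lower (FOSB), beside 28.2% higher and 30.1% lower among all genes tested. FOS and BATF3 did not pass. The calls of JUN and JUNB rest on how spread is shared between genes, and both were lost with a robust prior, as described with each gene. The median log2 fold change of the 9 was 0.47, and that of all genes tested was -0.03. Unless another test is named, adjusted p-values come from the quasi-likelihood test of edgeR, adjusted over all genes tested by the Benjamini-Hochberg method. The scaling of the libraries matters for every value: when libraries were scaled by their totals alone, without TMM factors, the median of all genes tested was -0.34, and the split of genes past the adjusted p moved from 4574 higher and 4875 lower to 2171 higher and 8449 lower.

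**Figure D1:**
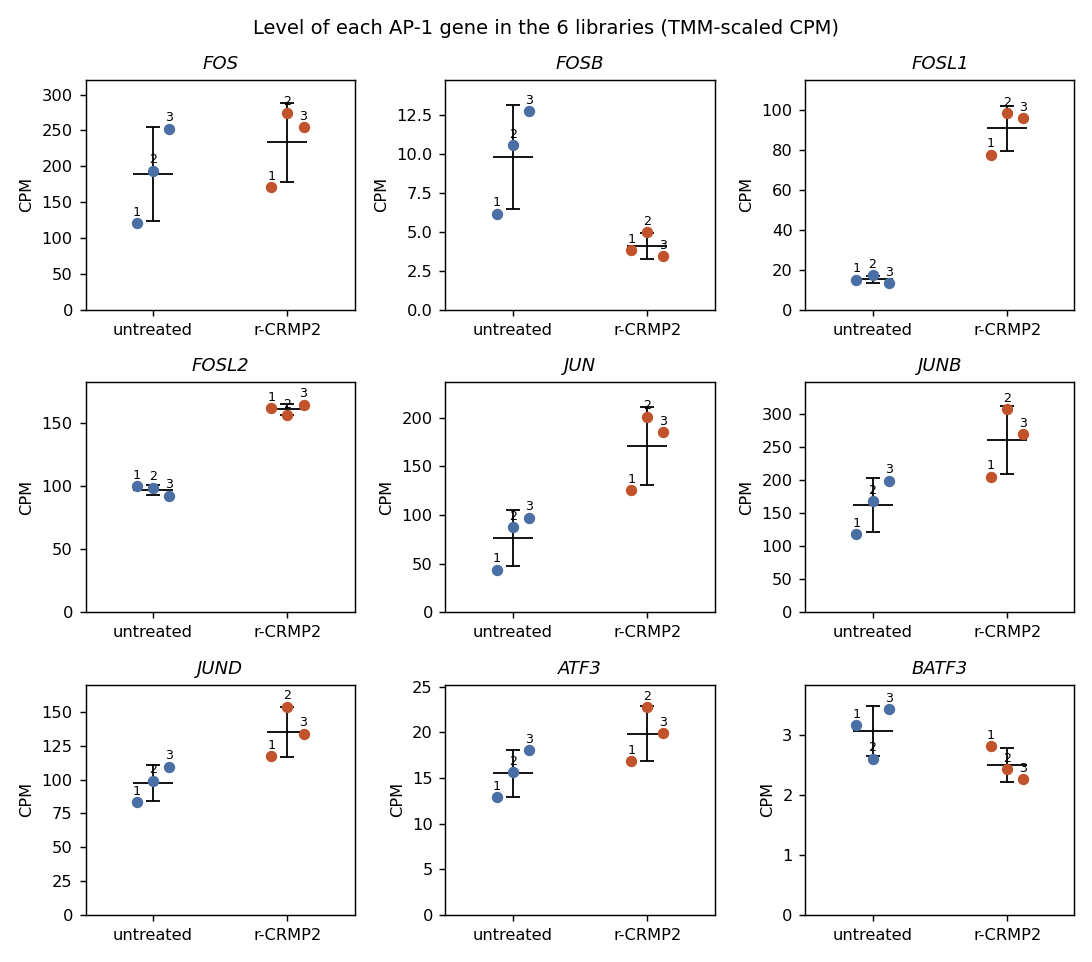
Level of each of the 9 genes in the 6 libraries, in CPM, counts scaled to a common library total with TMM factors (linear axes from 0). Points are libraries marked by replicate number, and bars are the mean and SD of 3. FOSL1, FOSL2, JUN, JUNB and JUND have no overlap between groups with r-CRMP2 higher, FOSB has none with r-CRMP2 lower, and FOS, ATF3 and BATF3 overlap. The share of all genes tested without such overlap is not given here. Past the adjusted p, 28.2% of all genes tested were higher and 30.1% lower.

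RefSeq promoter windows (GRCh38.p14) were matched by symbol for 6 of the 9 genes, namely FOS, FOSB, FOSL2, JUN, JUNB and JUND. The 250 bases before the start of 5 of them are printed 5′ to 3′ on the strand of the gene. These were chosen because FOS, JUN, JUNB and JUND were each lowest in replicate 1 of both groups and FOSB was lower past the adjusted p. Capitals mark every match, on either strand, to TGANTCA (the TPA response element bound by AP-1), TGACGTCA (the cyclic AMP response element, CRE), TGACG (the first part of the CRE, which is contained in it), the CArG box of serum response factor, and ACGTG and GCGTG (cores bound by hypoxia-inducible factors).
FOS, chr14:75278578-75278827, plus strand: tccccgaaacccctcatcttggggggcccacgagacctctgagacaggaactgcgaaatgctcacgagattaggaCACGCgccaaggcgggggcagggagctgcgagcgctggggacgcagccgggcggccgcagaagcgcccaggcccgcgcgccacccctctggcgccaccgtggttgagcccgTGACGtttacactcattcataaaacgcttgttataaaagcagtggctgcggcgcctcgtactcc
FOSB, chr19:45467746-45467995, plus strand: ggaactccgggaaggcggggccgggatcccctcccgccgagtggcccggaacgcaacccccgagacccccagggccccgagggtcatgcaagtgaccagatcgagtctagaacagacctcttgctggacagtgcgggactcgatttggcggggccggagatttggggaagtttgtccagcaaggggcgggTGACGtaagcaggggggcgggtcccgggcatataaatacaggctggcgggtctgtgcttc
JUN, chr1:58784048-58784297, minus strand: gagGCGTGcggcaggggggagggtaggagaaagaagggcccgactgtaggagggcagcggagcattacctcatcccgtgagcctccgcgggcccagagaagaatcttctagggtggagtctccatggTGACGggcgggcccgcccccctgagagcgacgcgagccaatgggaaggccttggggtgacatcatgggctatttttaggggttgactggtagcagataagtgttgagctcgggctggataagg
JUNB, chr19:12791236-12791485, plus strand: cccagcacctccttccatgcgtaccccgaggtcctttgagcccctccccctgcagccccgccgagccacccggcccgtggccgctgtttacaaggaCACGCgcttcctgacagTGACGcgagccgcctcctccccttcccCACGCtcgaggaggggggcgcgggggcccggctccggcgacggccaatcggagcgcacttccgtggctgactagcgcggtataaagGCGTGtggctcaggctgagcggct
JUND, chr19:18281623-18281872, minus strand: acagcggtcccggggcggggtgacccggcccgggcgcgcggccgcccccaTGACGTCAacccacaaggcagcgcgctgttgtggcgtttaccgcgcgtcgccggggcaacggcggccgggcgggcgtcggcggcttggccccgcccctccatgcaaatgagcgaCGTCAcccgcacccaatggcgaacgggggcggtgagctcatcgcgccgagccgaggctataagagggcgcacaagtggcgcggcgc

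TGACG was found in 6 of the 6 windows, beside 21.2% of 35116 promoter windows of the same length. The 6 windows were 62.0% (JUN) to 74.8% (JUND) G and C, beside a median of 58.0% over all windows. The shares of all windows are not matched for this. The motif TGACG was added to the search after these sequences had been read, so its count is a description. It lay 64 to 60 bases before the start in FOS, 60 to 56 in FOSB and 123 to 119 in JUN. The whole CRE was found in JUND alone, 200 to 193 bases before the start, and in 1.65% of all windows. TGANTCA and the CArG box had 0 matches in the 6 windows, beside 6.57% and 1.16% of all windows. Bases further upstream than 250 were not searched, and near matches, such as tgacatca in the JUN window, were not counted. The 0 matches therefore do not show that these genes lack such sites. GCGTG was found in FOS, JUN and JUNB (32.2% of all windows) and ACGTG in FOSL2 (18.5%), where it overlaps a TGACG. FOSB, which fell, and JUN, which was higher, both held TGACG. No motif searched was in all of FOSL2, JUN, JUNB and JUND and absent from FOSB. FOSL1 and ATF3, which were also higher, had no window to search.

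FOS, the founding member and the classical early gene of the family (hg19 chromosome 14, 75745481 to 75748937), had 121.2, 194.2 and 252.5 CPM in untreated replicates 1, 2 and 3 and 171.3, 275.0 and 254.5 CPM in r-CRMP2 replicates 1, 2 and 3. The groups overlapped, since the lowest r-CRMP2 library lay below the middle untreated one. Mean levels were 189.3 ± 65.8 CPM (SD, n = 3) and 233.6 ± 54.9 CPM (SD, n = 3). This difference, 0.30 on the log2 scale (SE 0.37), did not pass (edgeR adjusted p = 0.154), and it was -0.017 with library size alone. The call depended on the setting: FOS passed when no low-count filter was applied (edgeR adjusted p = 0.000175), without r-CRMP2 replicate 1 (log2 fold change 0.50, edgeR adjusted p = 0.0131), and without untreated replicate 3 (0.57, edgeR adjusted p = 0.00626). It also passed with the replicate number as a block (0.34, edgeR adjusted p = 0.00115). FOS did not pass by DESeq2 (DESeq2 adjusted p = 0.427) or by limma-voom (limma-voom adjusted p = 0.118). Nor did it pass with RLE scaling (edgeR adjusted p = 0.116) or the robust prior (edgeR adjusted p = 0.521). Without the low-count filter, the edgeR adjusted p of JUN also fell, from 4.02e-05 to 1.43e-51, while that of BATF3 rose, from 0.212 to 0.311.

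FOSB, an early gene whose short splice form persists in neurons (hg19 chromosome 19, 45971253 to 45978437), was the only 1 of the 9 lower past the adjusted p with TMM factors. It had 6.18, 10.5 and 12.7 CPM in untreated replicates 1 to 3 and 3.83, 5.00 and 3.44 CPM in r-CRMP2 replicates 1 to 3. Each r-CRMP2 library lay below each untreated one, on 79 to 99 counts against 172 to 349. Its log2 fold change was -1.27 (SE 0.35, edgeR adjusted p = 4.55e-05), a level 2.41-fold lower, and it was -1.58 with library size alone. It did not pass when tested against a 2-fold change (adjusted p = 0.417 from edgeR's glmTreat).

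FOSL1, which encodes FRA-1 (hg19 chromosome 11, 65659607 to 65667997), rose most of the 9. Its levels were 15.2, 17.3 and 13.4 CPM in untreated replicates 1 to 3 and 77.8, 98.7 and 96.2 CPM in r-CRMP2 replicates 1 to 3. The lowest r-CRMP2 library was far above the highest untreated one. This was a 5.95-fold rise, or 2.57 on the log2 scale (SE 0.15, edgeR adjusted p = 2.5e-13). Only 91 of the 16222 genes tested had a larger log2 fold change, and FOSL1 alone of the 9 passed when tested against a 2-fold change. Its pseudogene FOSL1P1 had 1, 1 and 2 counts in the untreated libraries and 0 in each r-CRMP2 library.

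FOSL2, which encodes FRA-2 (hg19 chromosome 2, 28615779 to 28637516), differed by less but with the smallest spread. It had 100.3, 98.9 and 92.5 CPM in untreated replicates 1 to 3 and 161.9, 156.2 and 164.8 CPM in r-CRMP2 replicates 1 to 3. The groups did not overlap, and the coefficient of variation was 4.25% in untreated and 2.72% in r-CRMP2 libraries, both under the medians of all genes tested (7.31% and 9.39%). The log2 fold change was 0.73 (SE 0.04, edgeR adjusted p = 8.77e-09). An overlapping gene on the opposite strand, FLJ31356, had 20.3 counts on average, far below the 2430 to 3789 counts of FOSL2.

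JUN, the partner that FOS proteins bind most often in textbook AP-1 (hg19 chromosome 1, 59246463 to 59249785), had 43.9, 87.9 and 97.4 CPM in untreated replicates 1 to 3 and 125.3, 201.0 and 185.2 CPM in r-CRMP2 replicates 1 to 3. Every r-CRMP2 library was above every untreated one, although levels within each group differed widely. JUN was 2.23-fold higher, a log2 fold change of 1.16 (SE 0.42, edgeR adjusted p = 4.02e-05). The p-value draws on the spread of other genes, and the spread of JUN itself was larger than that of 95.6% of genes in the untreated group. When the prior was made robust to such genes, an alternative chosen after seeing the data, JUN no longer passed (edgeR adjusted p = 0.0629). By DESeq2 the adjusted p was 0.00671 and by limma-voom 3.23e-05. The log2 fold change was under the threshold of 1 without untreated replicate 1 (0.88) and with library size alone (0.84, edgeR adjusted p = 0.0015).

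JUNB, which often restrains JUN (hg19 chromosome 19, 12902310 to 12904125), had 118.7, 169.0 and 199.6 CPM in untreated replicates 1 to 3 and 205.7, 308.5 and 269.5 CPM in r-CRMP2 replicates 1 to 3. The groups were separated by a narrow gap between untreated replicate 3 and r-CRMP2 replicate 1. Its log2 fold change was 0.68 (SE 0.28, edgeR adjusted p = 0.000323), and the call was lost with the robust prior (edgeR adjusted p = 0.091). The DESeq2 adjusted p was 0.0174 and the limma-voom adjusted p was 0.000276.

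JUND (hg19 chromosome 19, 18390504 to 18392466) had 83.2, 99.2 and 109.6 CPM in untreated replicates 1 to 3 and 117.1, 154.0 and 134.0 CPM in r-CRMP2 replicates 1 to 3. The groups did not overlap. Its log2 fold change of 0.47 (SE 0.16, edgeR adjusted p = 0.000297) was lost with library size alone, where it was 0.16 (edgeR adjusted p = 0.159).

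ATF3, a stress-induced protein that pairs with JUN proteins and often represses transcription (hg19 chromosome 1, 212738676 to 212794119), had 12.9, 15.6 and 18.03 CPM in untreated replicates 1 to 3 and 16.8, 22.8 and 19.97 CPM in r-CRMP2 replicates 1 to 3. The groups overlapped, because r-CRMP2 replicate 1 lay below untreated replicate 3. The log2 fold change of 0.36 (SE 0.19, edgeR adjusted p = 0.0176) was 0.041 with library size alone (edgeR adjusted p = 0.786). It was also lost without r-CRMP2 replicate 2 (0.26, edgeR adjusted p = 0.0921) and without untreated replicate 1 (0.24, edgeR adjusted p = 0.113).

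BATF3 (hg19 chromosome 1, 212859759 to 212873327) was low, with 3.16, 2.60 and 3.43 CPM in untreated replicates 1 to 3 and 2.81, 2.42 and 2.26 CPM in r-CRMP2 replicates 1 to 3. These are 48 to 94 counts per library, and the groups overlapped. The log2 fold change was -0.30 (SE 0.15, edgeR adjusted p = 0.212), and with library size alone it was -0.61 and passed (edgeR adjusted p = 0.0138).

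**Figure D2:**
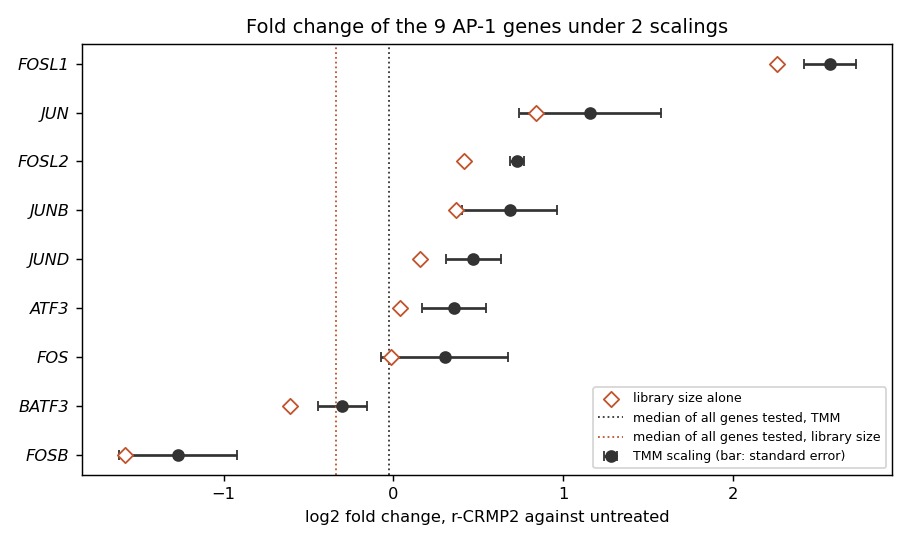
Log2 fold change of the 9 genes, r-CRMP2 against untreated. Filled circles are TMM-scaled values with their standard error, open diamonds the values with library size alone, and dotted lines the median of all genes tested under each scaling (-0.03 and -0.34). FOSL1 lies at 2.57 and FOSB at -1.27, and the FOS value moves from 0.30 to -0.017 between scalings.

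Levels were compared between genes as deposited TPM, which divides by gene length and carries no TMM factor. In untreated cells the order was JUNB (218.7 ± 57.0 TPM, SD, n = 3), FOS (214.6 ± 76.2), JUND (121.1 ± 17.9), FOSL2 (59.4 ± 2.34), JUN (56.3 ± 21.5), FOSL1 (21.3 ± 2.84), ATF3 (14.9 ± 2.61), BATF3 (7.62 ± 1.01) and FOSB (6.36 ± 2.22). The ranges of JUNB and FOS overlapped, as did those of FOS and JUND, of FOSL2 and JUN, and of BATF3 and FOSB. In r-CRMP2 cells FOSL1 had moved from rank 6 to rank 4, at 100.6 ± 9.43 TPM, with a range that overlapped that of JUN (99.3 ± 19.8) and not that of JUND (133.4 ± 12.1). JUNB (278.4 ± 43.8 TPM) and FOS (209.4 ± 42.1) again led with overlapping ranges, and FOSB (2.10 ± 0.332) was last.

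FOSL1 made up 9.46%, 7.74% and 5.07% of the TPM of the 4 FOS-family genes in untreated replicates 1 to 3 and 26.8%, 25.1% and 25.5% in r-CRMP2 replicates 1 to 3. These shares do not depend on the scaling of the libraries, and the groups were far apart. The FOS share was 69.8 ± 8.05% (SD, n = 3) in untreated and 53.2 ± 4.63% in r-CRMP2 cells, without overlap, while the FOSL2 share was 20.7 ± 6.15% and 20.4 ± 3.68%. FOSB made up 2.07 ± 0.246% and 0.543 ± 0.104%. In the JUN family, the JUN share was 13.8 ± 2.54% in untreated and 19.3 ± 1.3% in r-CRMP2 cells, without overlap, and JUNB held 55.0 ± 1.18% and 54.4 ± 0.622%. JUND held 35.0%, 29.7% and 28.6% in untreated and 28.3%, 25.4% and 25.1% in r-CRMP2 replicates 1 to 3, lower by a narrow gap. An exact permutation test of 3 against 3 cannot give a p-value under 0.1, so the shares are given without a test.

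**Figure D3:**
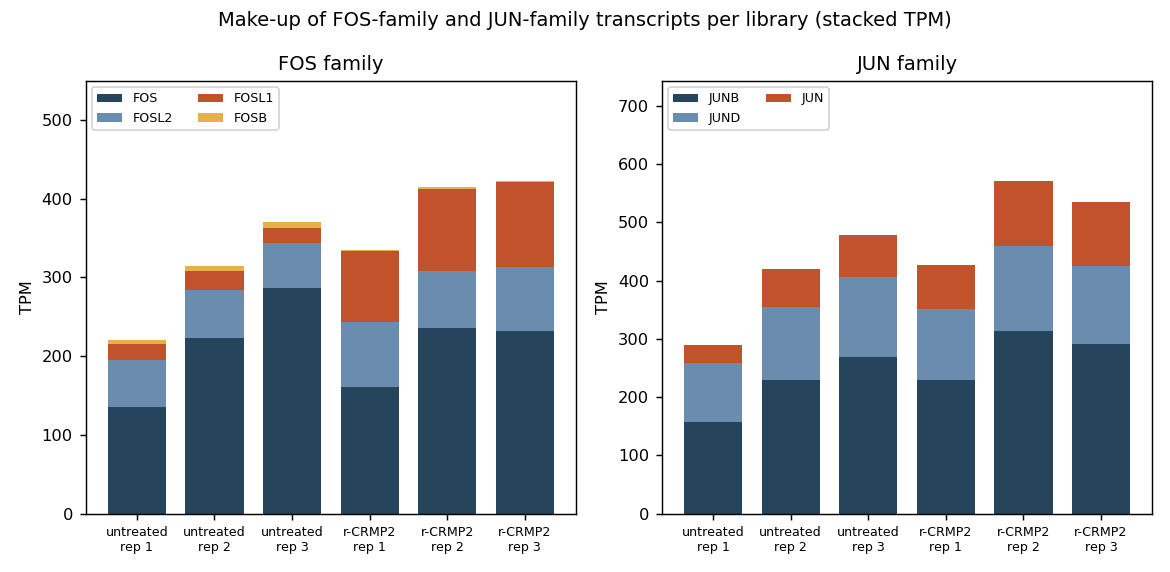
Stacked TPM of the 4 FOS-family genes (left) and the 3 JUN-family genes (right) in each of the 6 libraries. FOSL1 takes 5.07% to 9.46% of the FOS-family bar in untreated and 25.1% to 26.8% in r-CRMP2 libraries, and the summed height differs between libraries of 1 group.

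Several of the 9 genes varied between libraries of 1 group more than most genes did. In the untreated libraries the coefficient of variation was 37.4% for JUN, 34.7% for FOS, 34.0% for FOSB and 25.1% for JUNB, against a median of 7.31% over all genes tested. Replicate 1 was the lowest library of its group for 6 of the 9 genes in each group, beside 34.8% of all genes tested in the untreated and 33.8% in the r-CRMP2 group. FOS, JUN, JUNB, JUND and ATF3 were lowest in replicate 1 of both groups, as were 11.4% of all genes tested. The labels give nothing that links the 2 libraries numbered 1. EGR1, an early gene with the same serum and ERK inputs as FOS, was likewise lowest in untreated replicate 1 (63.5, 114.5 and 147.2 CPM) but highest in r-CRMP2 replicate 1 (6.73, 3.74 and 3.39 CPM).

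**Figure D4:**
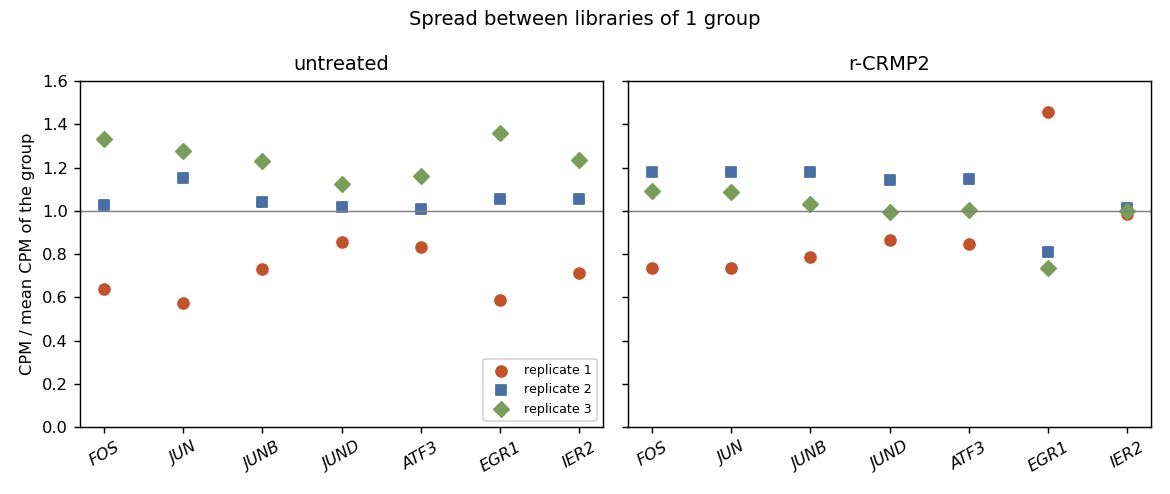
CPM of each library divided by the mean of its group, for 5 of the 9 genes and for EGR1 and IER2. The 5 drawn are those that were lowest in replicate 1 of both groups, and the others of the 9 are not drawn. Each point is 1 library and the line marks the group mean. Replicate 1 is lowest for FOS, JUN, JUNB, JUND and ATF3 in both groups, and highest for EGR1 in the r-CRMP2 group.

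Profiles over the 6 libraries were compared by Euclidean distance between centred log2 CPM, among 12704 genes other than the reference. Among the 5 genes nearest to FOS were ID2 (distance 0.28 on the log2 scale), LOC105369340, SNORA81 and RPS27AP16. ATF3 ranked 6, JUNB 9 and JUND 19 of 12704 by likeness to FOS, whereas JUN ranked 5972, FOSL2 6129, FOSL1 12558, FOSB 11855, BATF3 8880 and EGR1 12703. Nearest to JUN were KLF2 (distance 0.32), SNORA70, SNORD80, HIST1H2BH and RPL21P16, and JUNB ranked 9. With a minimum mean count of 10 in place of 50, 1 of the 5 nearest to FOS and 2 of the 5 nearest to JUN were shared.

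The other bZIP partners of FOS and JUN moved in both directions: of 12 tested out of 16 listed, 9 were higher and 2 lower past the adjusted p. Among all genes tested, 28.2% were higher and 30.1% lower. The list had a median log2 fold change of 0.60 that was 0.29 with library size alone. JDP2, a repressor that pairs with JUN and is close to ATF3 in sequence, fell from 19.3, 18.6 and 20.6 CPM to 9.21, 8.58 and 8.57 CPM, a log2 fold change of -1.15 (edgeR adjusted p = 1.29e-08). MAFA, a large MAF protein, was at -0.99 (edgeR adjusted p = 0.000434). The small MAF proteins, which lack an activation domain, stood at the other end: MAFK rose 4.16-fold (log2 2.06, edgeR adjusted p = 9.61e-13) and MAFF 3.797-fold (log2 1.92, edgeR adjusted p = 1.21e-12).

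Of 24 kinases upstream of AP-1 tested out of 25 listed, 8 were higher and 7 lower past the adjusted p, near the 28.2% and 30.1% of all genes tested, with a median of 0.03 that turned to -0.28 with library size alone, where 2 were higher and 15 lower. MAP2K6, which activates p38, had the lowest value at -1.40 (edgeR adjusted p = 7.06e-10), from 30.7 ± 3.41 to 11.6 ± 0.849 CPM (SD, n = 3 each). MAPK8 (JNK1), which phosphorylates JUN, was at -0.52, and RPS6KA2, a ribosomal S6 kinase, at -0.47. BRAF, MAP2K1 (MEK1) and MAP2K5 (MEK5) had the highest values, 0.58, 0.46 and 0.40, and the MAP2K5 call was lost with library size alone (0.09, edgeR adjusted p = 0.279).

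Among transcription factors that bind FOS and JUN promoters, 7 of 13 tested were higher and 4 lower past the adjusted p, beside 28.2% and 30.1% of all genes tested. Their median was 0.20, and it turned to -0.11 with library size alone. MEF2D, which binds the JUN promoter, was highest at 1.05 (edgeR adjusted p = 6.51e-11), followed by MEF2A at 0.55 and SP1 at 0.54. MKL2 (-0.78), CREM (-0.52) and MKL1 (-0.43) were lowest, and MKL1 and MKL2 are coactivators of serum response factor. ELK1, the ERK target that binds FOS with SRF, was at 0.50 (edgeR adjusted p = 1.59e-06). SRF was at 0.20 (edgeR adjusted p = 0.0182), and at -0.11 with library size alone (edgeR adjusted p = 0.194). CREB1, which binds the CRE, was at -0.26 and did not pass (edgeR adjusted p = 0.0629).

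Other early response genes split widely. Of 32 tested out of 33 listed, 19 were higher and 9 lower past the adjusted p, beside 28.2% and 30.1% of all genes tested. Past both thresholds 14 were higher and 5 lower, beside 5.12% and 8.86% of all genes tested. The list median was 0.60, and it was 0.28 with library size alone. EGR1, at 108.4 ± 42.2 CPM in untreated and 4.62 ± 1.84 CPM in r-CRMP2 cells (SD, n = 3 each), fell by 4.55 on the log2 scale (edgeR adjusted p = 3.43e-11). Its relatives fell too, on few counts: EGR2 had 18, 22 and 31 counts against 3, 0 and 0, and EGR3 had 27, 31 and 40 against 1, 1 and 7. IER2 fell by 0.83 (edgeR adjusted p = 9.96e-06), from 212.8, 314.7 and 368.0 CPM to 165.6, 170.8 and 168.5 CPM. In the other direction, IER3 rose by 3.07, RHOB, a small GTPase, by 2.43, and TIPARP, an ADP-ribosyltransferase, by 2.40. DUSP1, the phosphatase that switches off MAP kinases, rose by 1.84 (edgeR adjusted p = 3.19e-11). FOSB, EGR1, EGR2 and EGR3 were lower in the same libraries in which FOSL1, IER3 and DUSP1 were higher.

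**Figure D5:**
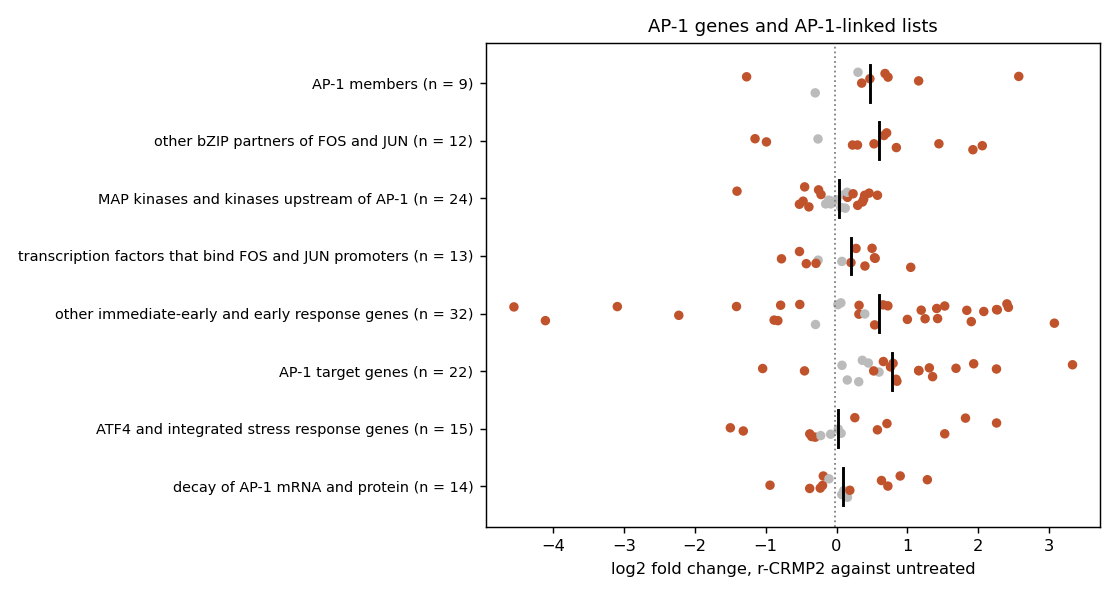
Log2 fold change of every tested gene of the 9 AP-1 genes and of 7 lists of linked genes (n, genes tested). Coloured points passed the adjusted p and grey points did not, black bars are list medians, and the dotted line is the median of all genes tested (-0.03). The early response list runs from EGR1 at -4.55 to IER3 at 3.07, and the median of AP-1 targets is 0.78.

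Of 22 AP-1 target genes tested out of 28 listed, 14 were higher and 2 lower past the adjusted p, beside 28.2% and 30.1% of all genes tested. Past both thresholds 8 were higher and 1 lower, beside 5.12% and 8.86% of all genes tested. The list median was 0.78, and it was 0.47 with library size alone. CXCL8 (interleukin 8) rose by 2.26 on the log2 scale (edgeR adjusted p = 6.45e-09) and KRT17, a keratin of wounded epithelium, by 1.94. CCND1 (cyclin D1), which JUN is known to activate, moved the other way: it fell by 1.04 (edgeR adjusted p = 1.79e-10), with 161.6, 157.2 and 163.9 CPM against 83.5, 71.9 and 79.1 CPM. NQO1, a quinone reductase, was at -0.45.

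Of 15 genes of ATF4 and the integrated stress response, which feed ATF3, 6 were higher and 5 lower past the adjusted p, beside 28.2% and 30.1% of all genes tested, with a median of 0.02 that turned to -0.29 with library size alone. ATF4 mRNA was at 0.07 (edgeR adjusted p = 0.379), and at -0.25 with library size alone, where it passed (edgeR adjusted p = 0.000942). PPP1R15A (GADD34) rose by 2.26, DDIT4 by 1.82 and CEBPB by 1.53, whereas SLC7A11, the cystine transporter, was at -1.50, CHAC1 at -1.32 and PSAT1 at -0.38. DDIT3 (CHOP) was at 0.58 (edgeR adjusted p = 0.00253) and lost the call with library size alone (0.26, edgeR adjusted p = 0.144).

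For decay of AP-1 mRNA and protein, 5 of 14 genes were higher and 5 lower past the adjusted p, beside 28.2% and 30.1% of all genes tested, with a median of 0.09 that turned to -0.22 with library size alone. CNOT8, a deadenylase, rose by 1.28. ZFP36L1 (0.90) and ZFP36 (0.73), which bind AU-rich elements in early gene mRNAs, were also higher. DET1 (-0.94) and RFWD2 (COP1, -0.38), parts of a ubiquitin ligase for JUN, and KHSRP (-0.23), another AU-rich element binder, were lower. DPYSL2, the gene of CRMP2 itself, had 80.7 to 86.0 CPM in untreated and 124.9 to 138.3 CPM in r-CRMP2 libraries, a log2 fold change of 0.66 (edgeR adjusted p = 5.48e-08).

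Library totals were 21888530 to 25711353 counts. The r-CRMP2 replicate 3 library had 22438 genes with a count, against 25152 to 26302 in the other 5 libraries, and leaving it out changed no call among the 9 genes at the adjusted p. In addition, mitochondrial genes took 6.19% to 6.59% of counts in untreated against 3.76% to 4.10% in r-CRMP2 libraries, whose part in these results was not tested. Of the ovarian and epithelial markers, 7 of 10 were tested, KRT8 was at 1264 CPM in untreated cells and PAX8 at 4.06, whereas WT1 and CDH1 were near 0. Of these 7, 1 was higher and 2 lower past the adjusted p, beside 28.2% and 30.1% of all genes tested. The same shares of all genes tested apply to the marker lists that follow. The median log2 fold change of these 7 was 0.03. The summed TPM of the 10, which carries no TMM factor, was 4207 to 4418 in untreated and 3444 to 3776 in r-CRMP2 libraries. Of 9 fibroblast markers tested, 4 were higher and 2 lower past the adjusted p, with a median of 0.21, whereas the summed TPM of the 10 listed was 263.3 to 301.3 and 190.8 to 204.1, with COL1A1 at -0.41 on the log2 scale and FAP at 0.262 CPM in untreated cells. Endothelial markers (0 higher and 2 lower of 5 tested) summed to 52.9 to 58.4 and 21.4 to 28.4 TPM. Leukocyte markers (1 higher and 0 lower of 2 tested) summed to 32.2 to 36.8 and 79.4 to 81.1 TPM, of which CD68 rose by 1.69 on the log2 scale (edgeR adjusted p = 3.01e-12), while PTPRC stayed near 0 (0.0527 and 0.113 CPM). Libraries are from whole cultures, so fewer cells with a transcript and less of it per cell cannot be told apart.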

How the data were processed

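Polyadenylated RNA of 6 A2780 libraries was sequenced. The authors deposited, for each library, unnormalized read counts on 44591 genes with TPM values and gene lengths. The deposited TPM equalled counts over length, rescaled, to within 4.72e-06. The submitters' processing notes name FastQC, HISAT2, DESeq2 and the build hg19. The counting tool, annotation and use of strand are not given in the sources used here. In the files, 27 gene names had become dates.

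Counts (21888530 to 25711353 per library) were tested with edgeR 4.0.16 (glmQLFit and glmQLFTest) in R 4.3.3, with TMM factors and filterByExpr. Thresholds were an adjusted p of 0.05 (Benjamini-Hochberg over 16222 genes) and a log2 fold change of 1. The script was tested on simulated data. CPM are counts scaled to a common total by library size times TMM factor. Standard errors come from the spread of log2 CPM (prior count 2) between libraries, whereas the quasi-likelihood test also borrows spread across genes (prior degrees of freedom 15.0 beside 4 residual). Profile likeness was limited to genes whose mean normalized count reached 50.

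The 9 genes and all lists were chosen with earlier results of these data known. Named genes are the 9, and in each list up to 3 genes with the lowest and up to 3 with the highest log2 fold change among those past the adjusted p, plus EGR1, IER2, SRF, ELK1, CREB1, ATF4, DDIT3, JDP2, CCND1, DUSP1 and ZFP36, the 5 genes nearest to FOS and to JUN, and DPYSL2. A few genes chosen this way are not reported here. Alternatives were leaving out each library, the replicate number as a block, DESeq2 1.42.0, scaling by RLE or by library size alone, omitting the low-count filter or requiring 10 counts in all libraries, glmTreat against a 2-fold change and a prior count of 2. A robust prior and limma-voom (limma 3.58.1) were added after seeing the data, as was the motif TGACG. Promoter windows were from RefSeq (GRCh38.p14), and no coordinates were converted between builds. Groups of 3 were not screened for outlying libraries.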

Additional observations from a re-analysis of the deposited data

How the results depend on the processing

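FOSL1, FOSL2 and FOSB kept their direction under every alternative run and passed under each except that FOSL2 and FOSB did not pass the test against a fold change of 2. With library size alone, FOS was -0.017, JUND 0.16, ATF3 0.041 and BATF3 -0.61 (which passed), 1 of the 9 was higher past both thresholds and 2 lower past the adjusted p. All genes past both thresholds were then 489 higher and 2553 lower, and past the adjusted p 2171 and 8449. Kinases had 2 higher and 15 lower, promoter-binding factors 4 higher, ATF4 genes 9 lower and decay genes 8 lower. SRF was -0.11 and ATF4 -0.25, and the medians of these 4 lists were -0.28, -0.11, -0.29 and -0.22. Against a fold change of 2, FOSB (-1.27), FOSL2 (0.73), JUN (1.16), JUNB (0.68), JUND (0.47) and ATF3 (0.36) did not pass, leaving 1 of the 9 higher and 0 lower. All genes were then 369 higher and 467 lower. Lists, higher and lower, had 2 and 0 (bZIP partners), 0 and 1 (kinases), 0 and 0 (promoter-binding factors), 12 and 4 (early genes), 6 and 0 (targets), 3 and 1 (ATF4 genes) and 1 and 0 (decay). With the robust prior JUN (1.16) and JUNB (0.68) did not pass, and 1 of the 9 was higher past both thresholds. Without the low-count filter FOS passed (0.30, edgeR adjusted p = 0.000175). At least 10 counts in every sample left 946 genes lower past both thresholds, in place of 1437. The cause of these differences was not tested.

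The labels do not say whether the replicate numbers pair the libraries. Deviations of same-numbered libraries correlated at -0.02, 0.0038 and -0.03 over all genes tested. This cannot decide whether a smaller set of genes shared an effect between same-numbered libraries. With the replicate number as a block FOS passed (0.34, edgeR adjusted p = 0.00115), and the other 8 of the 9 genes kept their side of the threshold. Leaving out 1 library, FOS lay between 0.063 and 0.57, ATF3 between 0.24 and 0.48, and JUN between 0.88 and 1.38. The count of the 9 higher past both thresholds lay between 1 and 2, with 1 without untreated replicate 1. The ATF4 list median lay between -0.030 (without untreated replicate 1) and 0.080, and was -0.0057 without r-CRMP2 replicate 1. With 3 libraries a group, FOS and BATF3 not passing does not show that they were equal.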
